A study of Mus musculus with 8 samples.

Results

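The cyclin-dependent kinase (CDK) inhibitors are the 7 genes Cdkn1a, Cdkn1b, Cdkn1c, Cdkn2a, Cdkn2b, Cdkn2c and Cdkn2d. They were taken as every non-control probe whose systematic name is a RefSeq transcript of one of these genes, which gave 10 of the 55681 probes on the array, and 7 of its 20887 named genes. A probe was tested when its sample signal stood well clear of the local background on 4 or more of the 8 arrays. Of the 10 probes 9 passed this filter, as did 31665 of all probes. Expression was measured in ureteric bud (UB) cells of newborn (postnatal day 0) C57BL/6 mice, sorted as GFP-positive cells from the kidneys. The 4 KO samples, labelled DOT1-null, carried a conditional knockout of Dot1 in Hoxb7-positive cells, and the 4 WT samples, labelled wildtype, were the controls. Dot1l encodes a methyltransferase of histone H3, and Hoxb7 is active in the ureteric bud and the collecting ducts that grow from it. The labels do not name the Cre line, and they do not say whether animals were pooled for a sample. Each array held 1 sample in Cy5 (red) and the RNA of WT 3 in Cy3 (green), so that the array of WT 3 set this RNA against itself.

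CDK inhibitors are small proteins that hold back the kinases driving the cell cycle, and there are 2 families of them. The INK4 family, made from Cdkn2a, Cdkn2b, Cdkn2c and Cdkn2d, binds CDK4 and CDK6 and keeps them from pairing with D-type cyclins, which leaves the RB proteins able to hold E2F transcription factors in check. The CIP/KIP family, made from Cdkn1a, Cdkn1b and Cdkn1c, binds cyclin-CDK complexes more broadly. Cdkn2a also encodes ARF, an unrelated protein read in another frame from its own first exon, which binds MDM2 and so stabilises p53. Cdkn2a and Cdkn2b lie side by side, and Polycomb proteins silence this locus in dividing cells, a hold that is lost in senescent ones.

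Of that locus, 3 transcription starts are listed in the RefSeq promoter table (build GRCm38.p6), and the 250 bases before each one are printed here because Cdkn2b had the highest tested KO minus WT difference of the CDK inhibitors and Cdkn2a was well above background on KO arrays alone. All lie on the minus strand of chromosome 4 and are written 5′ to 3′, with the starts just after the last base. Capitals mark GGGCGG (the GC box) and TGACGTCA (the cyclic AMP response element), searched on both strands.
Cdkn2b, chr4:89311033-89311282: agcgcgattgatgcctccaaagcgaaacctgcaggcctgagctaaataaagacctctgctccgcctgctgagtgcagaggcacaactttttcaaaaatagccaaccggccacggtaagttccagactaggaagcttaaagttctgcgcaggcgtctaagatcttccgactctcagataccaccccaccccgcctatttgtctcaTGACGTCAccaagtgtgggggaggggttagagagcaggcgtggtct
Cdkn2a, upstream start (that of the ARF first exon), chr4:89294620-89294869: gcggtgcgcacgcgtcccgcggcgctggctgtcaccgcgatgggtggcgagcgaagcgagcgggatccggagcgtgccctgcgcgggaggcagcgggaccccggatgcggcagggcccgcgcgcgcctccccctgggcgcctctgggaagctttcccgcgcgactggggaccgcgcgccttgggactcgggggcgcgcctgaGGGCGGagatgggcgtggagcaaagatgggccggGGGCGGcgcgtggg
Cdkn2a, downstream start (that of the INK4a first exon), chr4:89282193-89282442: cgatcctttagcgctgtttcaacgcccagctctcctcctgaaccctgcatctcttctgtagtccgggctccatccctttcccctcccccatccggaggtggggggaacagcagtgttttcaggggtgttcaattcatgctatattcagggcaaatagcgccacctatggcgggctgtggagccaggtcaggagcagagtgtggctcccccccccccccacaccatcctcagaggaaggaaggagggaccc

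The ARF window held 40 CpG dinucleotides, the Cdkn2b window 12 and the INK4a window 7, against a median of 6 over the 32851 windows of this length in the table. The Cdkn2b window held 1 TGACGTCA, which began 46 bases before the start and overlapped no other motif searched. This motif was added to the search after the sequence had been read, and 1.55% of all windows held it. GGGCGG was present 2 times in the ARF window and was not found in the Cdkn2b or INK4a window, and 32.7% of all windows held it. Neither CCAAT (33.9% of all windows) nor TATAAA (12.4%) was found in any of the 3 windows. The table holds 9 windows for 6 of the 7 genes, and no window of Cdkn1c was used. A p53 half-site was found in the upstream window of Cdkn1a, which held 2, and in that of Cdkn2d, which held 1, and 7.13% of all windows held one. These are matches of letters in a window, and binding was not measured.

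The arrays were uneven before any comparison. KO 3 had Cy5 well above background at 95.2% of probes and Cy3 at 86.2%, while the other 7 arrays had 45.9% to 48.6% in Cy3. In Cy5, KO 1, KO 2 and KO 4 had 59.1% to 68.9% and the WT arrays 52.4% to 56.2%. Every KO array thus had more probes above background in Cy5 than any WT array. KO 3 also had 7665 spots marked as uneven or as outliers, against 175 to 216 on the others. Replicate log2 ratios correlated with r of 0.37 to 0.82 among KO arrays and of 0.66 to 0.76 among WT arrays. The 4 KO arrays filled row 1 of the slide and the 4 WT arrays row 2, so an effect of the row and one of the genotype cannot be told apart. The Dot1l probe averaged 0.16 ± 0.19 in KO and -0.02 ± 0.08 in WT on the log2 scale (SD, n = 4 each). The labels do not give the deleted exons, so this probe does not check the genotype labels. Of the ureteric bud markers, 14 of 14 were above background on all 8 arrays.

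None of the 9 tested CDK inhibitor probes passed the test of KO minus WT at an adjusted p of 0.05 (limma, Benjamini-Hochberg over the 31665 tested probes), and 2 probes of the whole array did, which is 0.00632%. Among the 9, the Cdkn2a probe entered the test only through the KO arrays where it was high, so it is described by its values and left out of the counts that follow. At an unadjusted p under 0.05, 5 of the other 8 passed, against 23.8% of all tested probes. Of these, 2 were higher in KO (9.98% of all tested probes) and 3 lower (13.8%). The highest difference among the 8 was that of Cdkn2b and the lowest that of Cdkn1c. The median over the 8 probes was -0.09 on the log2 scale, against -0.02 over all tested probes. Without KO 2, 3 of the 8 passed (Cdkn1c, Cdkn2b and Cdkn2c, 1 probe each), and then 21.1% of all tested probes did. Without KO 2 and KO 3 together, 4 passed, against 23.5% of all. With array weights, which give arrays that fit the group means less well a smaller part in the fit, 3 passed, against 18.8% of all. Of the 8 differences 3 were above 0, those of both Cdkn2b probes and 1 Cdkn1a probe, and 5 were below 0.

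**Figure D1:**
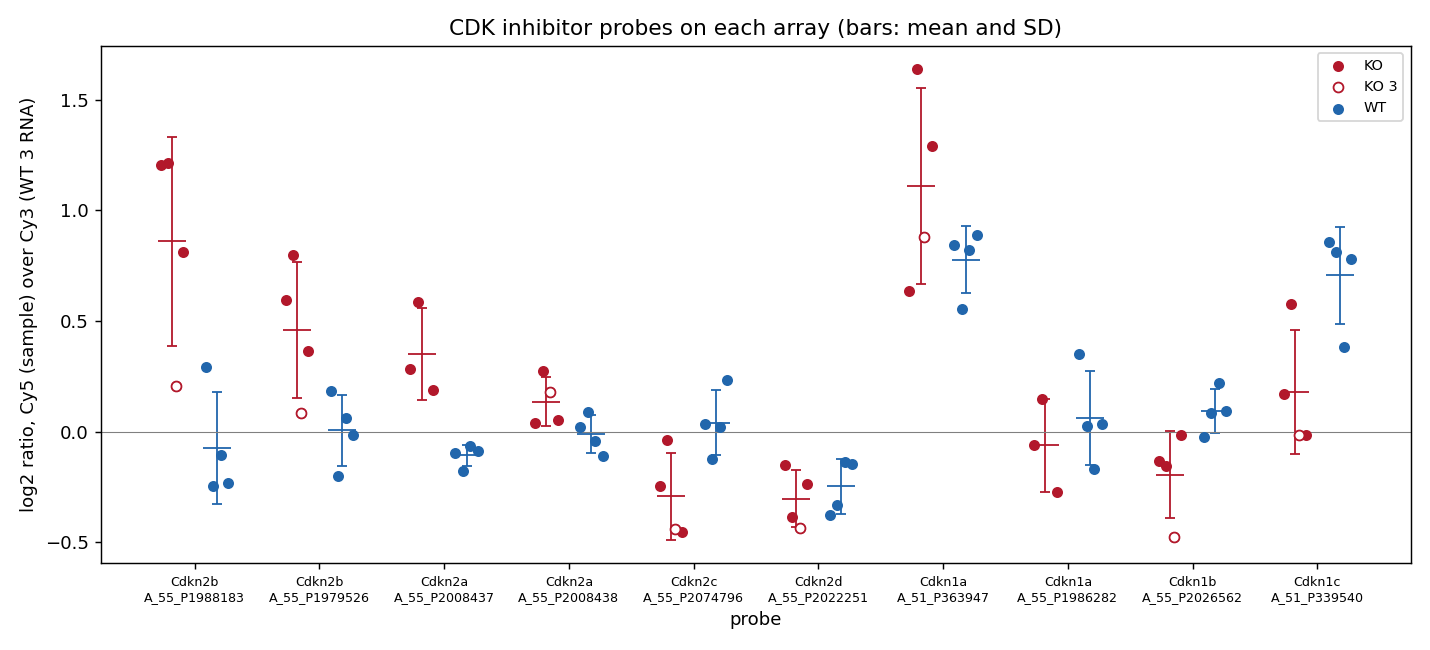
Log2 ratio of Cy5 (the sample) to Cy3 (RNA of WT 3) for the 10 CDK inhibitor probes on each array, with the mean and SD of each group; KO 3 is drawn open. In KO, 3 of the 4 Cdkn2b values of probe A_55_P1988183 lie above all WT values, and KO 3 at 0.21 lies below WT 1 at 0.29.

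Cdkn2b encodes p15INK4b, an INK4 inhibitor known as a target of TGF-beta signalling. Its probe A_55_P1988183 had background-subtracted Cy5 signals of 896.5, 1003, 1232 and 668 on the arrays of KO 1 to KO 4, against 333, 142.5, 197 and 180 on those of WT 1 to WT 4. Every KO signal was above every WT signal, as was so for 23% of tested probes before normalisation. In Cy3, which read the same WT RNA on all arrays, this probe gave 49, 55.5, 142 and 59 on the KO arrays and 41, 47.5, 49 and 54.5 on the WT arrays. The Cy3 signal on the array of KO 3 thus stood at 2.96 times the WT mean, and those on the other 3 KO arrays averaged 1.14 times it. The Cy3 signals of the groups overlapped, while 8.03% of tested probes had every KO Cy3 signal above every WT one.

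After normalisation the log2 ratios of this Cdkn2b probe were 1.21, 1.21, 0.21 and 0.81 in KO, against 0.29, -0.25, -0.11 and -0.23 in WT. KO 3 alone among the KO arrays overlapped the WT arrays. The mean was 0.86 ± 0.47 in KO and -0.07 ± 0.25 in WT (SD, n = 4 each), a difference of 0.93 ± 0.22 (SE), or 1.91-fold, with an adjusted p of 0.107 (limma) and an unadjusted p of 0.00201. Of all tested probes, 1.37% had a higher difference. The difference was past the threshold without KO 2 at 0.82 (adjusted p = 0.0330), without KO 2 and KO 3 at 1.08 (adjusted p = 0.00503), and with array weights at 0.97 (adjusted p = 0.0146). In these settings 21.1%, 23.5% and 18.8% of all tested probes passed, in that order. Without KO 3 alone the difference was 1.15 and did not pass (limma adjusted p = 0.0775). It did not pass in 22 of 26 alternatives. In the alternative on Cy5 alone without KO 3, chosen after seeing the data, it was 1.24 (adjusted p = 0.0310), where 0.126% of all tested probes passed.

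The second Cdkn2b probe, A_55_P1979526, was dim, and its Cy3 signal was above background on 2 of the 8 arrays. Its Cy5 signals were 190, 282, 402 and 154 in KO, against 72, 18, 43.5 and 41 in WT. Here too all KO signals were above all WT signals, in the order KO 3, KO 2, KO 1, KO 4 that the other Cdkn2b probe also had. The log2 ratios were 0.59, 0.80, 0.08 and 0.36 in KO, against 0.18, -0.20, 0.06 and -0.02 in WT. KO 3 again lay within the WT range and the other KO arrays above it. The difference was 0.45 ± 0.15 (SE; limma adjusted p = 0.136). Both probes read the transcript NM_007670, so they are 2 readings of 1 RNA and not independent samples.

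Cdkn2a encodes p16INK4a and ARF, and its probes carry the name of the transcript NM_009877. Probe A_55_P2008437 gave Cy5 signals of 78, 183.5, 713 and 77.5 in KO, against 17, 3.5, 5 and 8.5 in WT. It was well above background on 4 of 4 KO arrays and on 0 of 4 WT arrays, and so it passed the filter only through the KO arrays, where it had to be high. Over all probes, Cy5 was well above background at 59.1% or more on each KO array and at 56.2% or less on each WT array. The share of all probes detected on KO arrays alone was not counted. The spot on KO 3, with a Cy3 signal of 98 where the other arrays had 0 to 8, was marked as an outlier and dropped from the test. The remaining log2 ratios were 0.28, 0.59 and 0.19 in KO 1, KO 2 and KO 4, against -0.10, -0.18, -0.07 and -0.09 in WT. The 3 KO values used lay above all WT values, as the filter favours, and 4.02% of all tested probes were separated with KO higher.

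For this Cdkn2a probe no test of KO against WT is given, since it was measured only where KO was high. The WT arrays give only a bound, and Cy5 in KO was at least 1.60-fold higher, set against the lowest signal well above background or the probe's own where that was higher. The second Cdkn2a probe, A_55_P2008438, was not well above background on any of the 8 arrays, and it was not tested. Its Cy5 signals ran between -1 and 38 in KO and between -7 and 2 in WT, so the 2 probes of this gene disagree in whether they detect it. The files do not say which of the 2 first exons, that of ARF or that of INK4a, either probe can read.

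**Figure D2:**
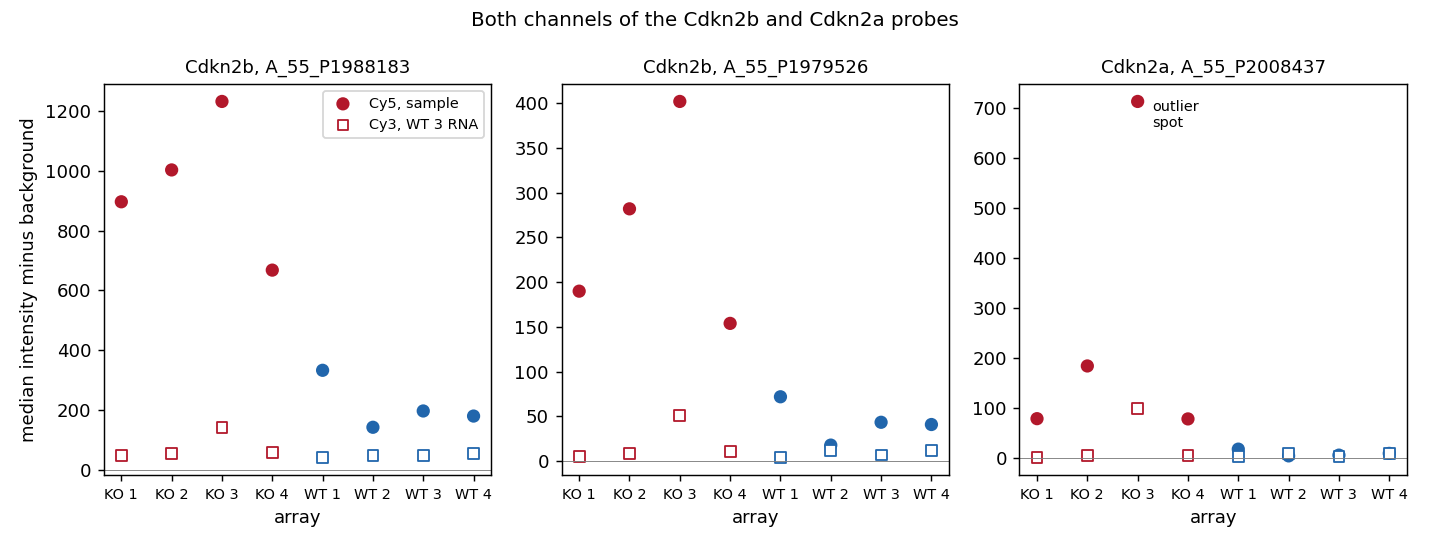
Background-subtracted median intensity of Cy5 (filled circles, the sample) and Cy3 (open squares, RNA of WT 3) for both Cdkn2b probes and the Cdkn2a probe above background, on the 4 KO arrays (left) and the 4 WT arrays (right). Cy5 is higher on all KO arrays than on any WT array in each panel, as for 23% of tested probes before normalisation. For the Cdkn2a probe the filter favours this, and after normalisation KO 3 overlapped WT at both Cdkn2b probes. Cy3 is highest on KO 3 in each panel. The Cdkn2a spot of KO 3 was marked as an outlier.

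The size of the Cdkn2b difference moved with the way background was handled. Normalisation added an offset of 50 to the signals. With an offset of 0 and all else kept, the KO minus WT difference of Cdkn2b probe A_55_P1988183 was 1.25 in place of 0.93 on the log2 scale (limma adjusted p = 0.155), and that of A_55_P1979526 was 0.93 in place of 0.45 (adjusted p = 0.192). With the scanner's own log ratio, which differs in background and dye normalisation as well, A_55_P1988183 had 1.39 and did not pass. In that setting 0.0158% of all tested probes passed. Mean Cy5 of Cdkn2b probe A_55_P1988183 was 950 ± 234 in KO and 213 ± 83.1 in WT (SD, n = 4 each), a ratio of 4.46, and of 4.02 without KO 3. The median of that ratio without KO 3 over all tested probes was 1.20, and 3.17% of them had a higher one.

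The log2 ratios of Cdkn2a and Cdkn2b correlated with r of 0.91 for Cdkn2b probe A_55_P1988183 and 0.96 for the other, over the 7 arrays with a Cdkn2a value. The Cdkn2a probe was well above background on 0 of the 4 WT arrays and passed the filter only where KO was high. A likeness to any probe higher in KO was thus favoured by the filter. The arrays share the slide and the Cy3 RNA, and 2 groups of arrays make up most of the spread, so these are descriptions. Among the 17527 candidate probes of other named genes, those most like Cdkn2b over 8 arrays were Tstd1, F5 (coagulation factor V) and Tmprss4 (a membrane serine protease), with r of 0.98 to 0.99. Those most like Cdkn2a over 7 arrays, with the same limit, were Nupr1 (a stress-induced chromatin protein), Cryba4 (a lens crystallin) and Spaca1, with r of 0.97 to 0.99. Of the neighbours of the locus, 1 of 4 was tested, the methylthioadenosine phosphorylase gene Mtap, with a difference of -0.06 ± 0.12 (SE; limma adjusted p = 0.793). The 95% interval of that difference ran between -0.32 and 0.20.

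Cdkn2c encodes p18INK4c, another INK4 inhibitor. Its Cy5 signals were 172, 210, 192.5 and 112 in KO, against 184, 116.5, 185 and 204 in WT, and these overlapped. The log2 ratios were -0.24, -0.04, -0.44 and -0.45 in KO, against 0.03, -0.12, 0.02 and 0.23 in WT. KO 2 lay within the WT range and the other 3 KO arrays below it. The difference was -0.33 ± 0.12 (SE; limma adjusted p = 0.146). Without KO 2 it was -0.42 (adjusted p = 0.0244), where 21.1% of all tested probes passed. With the scanner's log ratio it was -0.82 and did not pass (adjusted p = 0.169).

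Cdkn2d encodes p19INK4d. Its log2 ratios were -0.15, -0.39, -0.43 and -0.24 in KO, against -0.38, -0.33, -0.14 and -0.15 in WT, and the groups overlapped. The difference was -0.06 ± 0.10 (SE; limma adjusted p = 0.766), with a 95% interval between -0.28 and 0.17. The sign of so small a difference turned under 5 of 26 alternatives, as it did with the scanner's log ratio (0.0046).

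Cdkn1c encodes p57KIP2, an imprinted CIP/KIP inhibitor that is needed for normal development of the kidney medulla in mice and that podocytes make as they mature. Its probe gave Cy5 signals of 8204, 12896, 8987 and 6315 in KO, against 15125, 11302.5, 9648 and 11424 in WT. The log2 ratios were 0.17, 0.58, -0.02 and -0.02 in KO, against 0.86, 0.81, 0.38 and 0.78 in WT. KO 2 was above WT 3, and the other 3 KO arrays were below all WT arrays. The mean was 0.18 ± 0.28 in KO and 0.71 ± 0.22 in WT (SD, n = 4 each), a difference of -0.53 ± 0.16 (SE), with an adjusted p of 0.118 (limma) and an unadjusted p of 0.00735. Of all tested probes, 2.68% had a lower difference. Without KO 2 the difference was -0.66 (adjusted p = 0.00855), without KO 2 and KO 3 it was -0.63 (adjusted p = 0.0189), and with array weights -0.61 (adjusted p = 0.0186). In these settings 21.1%, 23.5% and 18.8% of all tested probes passed, in that order. Without KO 3 alone the difference was -0.46 and did not pass (limma adjusted p = 0.202). It did not pass in 23 of 26 alternatives. In bulk samples, fewer cells of a type and less RNA per cell cannot be told apart.

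Marker lists of other kidney cells were read as well, and none of their tested genes passed at an adjusted p of 0.05 (limma). These were lists of podocytes, nephron progenitors, stroma, macrophages and neutrophils, endothelium and erythroid cells. At an unadjusted p under 0.05, 2 of their tested genes were higher in KO and 5 lower. At that p, 9.98% of all tested probes were higher and 13.8% lower. After normalisation, KO minus WT was below 0 for 7 of 7 stroma markers (median -0.37), 5 of 6 nephron progenitor markers (median -0.74) and 5 of 6 podocyte markers (median -0.19), as for Cdkn1c. It was below 0 for 7 of 7 macrophage and neutrophil markers (median -0.27), of which 3 had all KO values below all WT values, and 7.73% of all tested probes did. It was above 0 for 5 of 5 endothelium markers (median 0.18) and 3 of 4 erythroid markers (median 0.02). Of the ureteric bud markers, 9 of 14 were below 0 (median -0.12). Over all named genes, 43.0% of the brightest tested probes were above 0 (median -0.04). The summed Cy5 signal of the 6 podocyte markers was between 2339 and 10564 in KO and between 3313 and 9791 in WT, with 6 of 6 above background on each array. That of the 6 nephron progenitor markers was between 20956 and 40979 in KO and between 23940 and 48808 in WT, also with 6 of 6 above background. That of the 7 stroma markers was between 5857 and 20042 in KO and between 6568 and 20281 in WT, with 6 or 7 above background. In the stroma list KO 2 and WT 1 were the highest of their groups, KO 1 and WT 3 the lowest. Cdkn1c was highest in its group on KO 2 and WT 1 too and lowest in WT 3, while KO 1 was not the lowest KO array for Cdkn1c. The summed ureteric bud markers gave 139663 to 186426 in KO and 111040 to 168959 in WT. These and the summed nephron progenitor markers were highest on KO 2 and WT 1 too, so this order was not particular to stroma. The summed podocyte markers were highest on KO 3 and WT 2. The part of these cells in the Cdkn1c values was not tested.

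Around Cdkn1c in its imprinted domain on chromosome 7, 0 of 9 tested genes passed the adjusted threshold (limma), and at an unadjusted p under 0.05, 4 were higher in KO and 2 lower, where 9.98% of all tested probes were higher and 13.8% lower. Of the 9 differences 5 were above 0 and 4 below, with a median of 0.01. Igf2, a fetal growth factor, had log2 ratios of 0.90, 2.12, 0.71 and 1.00 in KO, against 1.93, 2.14, 1.87 and 3.097 in WT. KO 2 lay within the WT range and the other KO arrays below it, as for Cdkn1c. The Igf2 difference was -1.07 ± 0.34 (SE; limma adjusted p = 0.128). Ascl2, a transcription factor of the same domain, had a difference of 0.76 ± 0.19 (SE, n = 3 KO arrays; adjusted p = 0.109), and Tssc4 had one of -0.30 ± 0.10 (SE; adjusted p = 0.131). The probes most like Cdkn1c over 8 arrays were those of Drosha (a nuclease of miRNA processing), Trip4 and Cops6, with r of 0.98 to 0.99.

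Cdkn1a encodes p21, the CIP/KIP inhibitor known as the main p53 target in cell cycle arrest. Probe A_51_P363947 was printed in 10 spots, whose log2 ratios had an SD of 0.05 to 0.10 within an array. Its Cy5 signals were 1959, 4307, 3850 and 2829 in KO, against 2323, 1390, 1960 and 2001 in WT. The log2 ratios were 0.64, 1.64, 0.88 and 1.29 in KO, against 0.84, 0.55, 0.82 and 0.89 in WT. KO 2 and KO 4 were above all WT arrays and KO 1 and KO 3 within their range. The difference was 0.34 ± 0.20 (SE; limma adjusted p = 0.325), with a 95% interval between -0.11 and 0.78. For Cdkn1a A_51_P363947 it was 0.16 without KO 2 (adjusted p = 0.504) and 0.017 when loess was replaced by centring on the median (adjusted p = 0.973). On the array of WT 3, which holds the same RNA in both dyes, the ratio was 0.82 and not 0, and such a dye effect cancels in KO minus WT as far as it is constant.

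The second Cdkn1a probe, A_55_P1986282, carries the name of another transcript, NM_001111099, and was dim. Its Cy5 signals were 14, 73.5, 3593 and 26 in KO, against 70, 25.5, 20 and 44 in WT. The spot on KO 3 was marked as an outlier and dropped. The difference was -0.12 ± 0.15 (SE, n = 3 KO and 4 WT arrays; limma adjusted p = 0.641), in the opposite direction to the other probe. Its signal was above background on 2 KO and 3 WT arrays only. The 2 KO arrays were KO 2 and KO 3, so of the KO values used only that of KO 2 was above background.

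Cdkn1b encodes p27KIP1, a CIP/KIP inhibitor controlled in large part by protein turnover. Its log2 ratios were -0.13, -0.15, -0.48 and -0.02 in KO, against -0.03, 0.09, 0.22 and 0.09 in WT. KO 4 was above WT 1 and the other 3 KO arrays were below all WT arrays. The difference was -0.29 ± 0.11 (SE; limma adjusted p = 0.165), and raw Cy5 averaged 3113 ± 289 in KO and 3059 ± 361 in WT (SD, n = 4 each), a ratio of 1.02. The probes most like Cdkn1a were those of Hpgd, Tiam2 and Notch1 (r of 0.95 to 0.96), those most like Cdkn2c of Wdr25, Psme1 and Vac14 (r of 0.98 to 0.99), and those most like Cdkn2d of Mosmo, Hes7 and Wdr45 (r of 0.93 to 0.95).

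**Figure D3:**
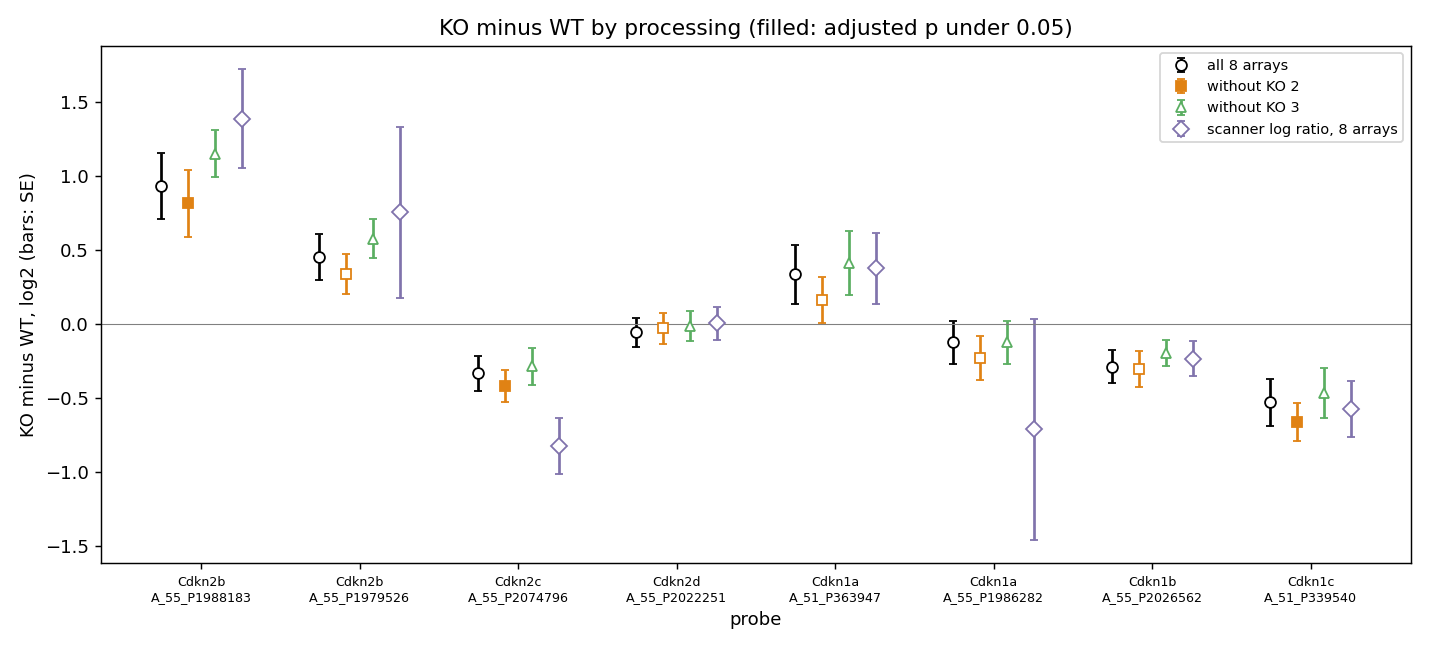
KO minus WT difference (log2, with SE) of the 8 CDK inhibitor probes detected in both groups, with all 8 arrays, without KO 2, without KO 3, and from the scanner's own log ratio. Filled symbols have a limma adjusted p under 0.05. Of these 4 settings they are found without KO 2 only, at Cdkn2b (A_55_P1988183), Cdkn2c and Cdkn1c. In that setting 21.1% of all tested probes passed.

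The kinases and transcription factors that these inhibitors act on were read from lists, and 0 of the 111 gene entries tested in the 10 lists passed at an adjusted p of 0.05 (limma). At an unadjusted p under 0.05, 9 were higher in KO and 25 lower, where 9.98% of all tested probes were higher and 13.8% lower. Of the G1 and S phase cyclins and CDKs, 2 of 8 were above 0 and 6 below, with a median of -0.13. Ccne1 (cyclin E1, the partner of CDK2) had the smallest p of that list, with a difference of -0.57 ± 0.14 (SE, n = 3 KO arrays; adjusted p = 0.108). Another Ccne1 probe had 0.10, and the mean over the gene's probes was -0.18 (adjusted p = 0.250). Ccna2 (cyclin A2) had -0.35 ± 0.13 and Cdk2 -0.21 ± 0.10. Of the RB and E2F family, 6 of 13 were above 0 and 7 below, with a median of -0.04. E2f1, an activator of S phase genes, had log2 ratios of -0.45, -0.23, -0.78 and -0.78 in KO, against -0.17, 0.35, -0.02 and -0.02 in WT. All KO values of E2f1 were below all WT values, as for 7.73% of tested probes, and the difference was -0.59 ± 0.15 (SE; adjusted p = 0.108).

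Of the proliferation list 2 of 9 were above 0 and 7 below, with a median of -0.23, and the replication helicase genes Mcm2 (-0.50 ± 0.11) and Mcm5 (-0.63 ± 0.15) had the smallest p. Of the genes that turn over inhibitor proteins, 3 of 12 were above 0, with a median of -0.09. Ddb1 (0.21 ± 0.09) and Cul4a (0.21 ± 0.10), parts of the ubiquitin ligase that acts on p21, were both above 0 here and below 0 with median centring in place of loess. Cks1b, a cofactor in the turnover of p27, had -0.24 ± 0.12. Of other genes named as CDK inhibitors or CDK-binding, 1 of 7 was above 0, with a median of -0.17, and Cdk2ap2 had the smallest p (-0.39 ± 0.12, adjusted p = 0.126).

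Of the repressors of the Cdkn2a locus, 8 of 18 were above 0 and 10 below, with a median of -0.01. Tbx3, a T-box factor known to repress ARF, had log2 ratios of -0.13, -0.22, -0.64 and -0.28 in KO, against 0.70, 0.34, 0.15 and 0.81 in WT. Tbx2, its relative with the same known role, had -0.59, -0.49, -0.74 and -0.88 in KO, against -0.10, -0.23, -0.09 and -0.24 in WT. For both genes all KO values were below all WT values, KO 2 included, as for 7.73% of tested probes, and both were named for a small p in their list. The differences were -0.82 ± 0.17 for Tbx3 and -0.51 ± 0.10 for Tbx2 (SE; limma adjusted p = 0.101 for each). Pcgf2, a Polycomb subunit, had -0.34 ± 0.10 (adjusted p = 0.119).

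Of the activators of CDK inhibitor transcription, 9 of 19 were above 0 and 10 below, with a median of -0.02, and of the ARF and p53 arm 7 of 15 were above 0 and 8 below, with a median of -0.06. Trp53, which encodes p53, had log2 ratios of 0.01, 0.61, -0.27 and -0.33 in KO, against 0.73, 0.83, 0.72 and 0.78 in WT. All KO values were below all WT values, as for 7.73% of tested probes, with KO 2 nearest to the WT values. The difference was -0.76 ± 0.18 (SE; limma adjusted p = 0.108), and Trp53 was named for a small p in its list. The p53 targets Pmaip1 (NOXA) and Bbc3 (PUMA), both of which promote cell death, had differences of 0.57 ± 0.14 (adjusted p = 0.108) and -0.26 ± 0.08 (adjusted p = 0.121), of opposite sign. Hes1, a Notch target that stands in the list of activators although it is known to repress p27 and p57, had -0.50 ± 0.14. Foxo4, a forkhead activator of p27, had -0.23 ± 0.07.

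**Figure D4:**
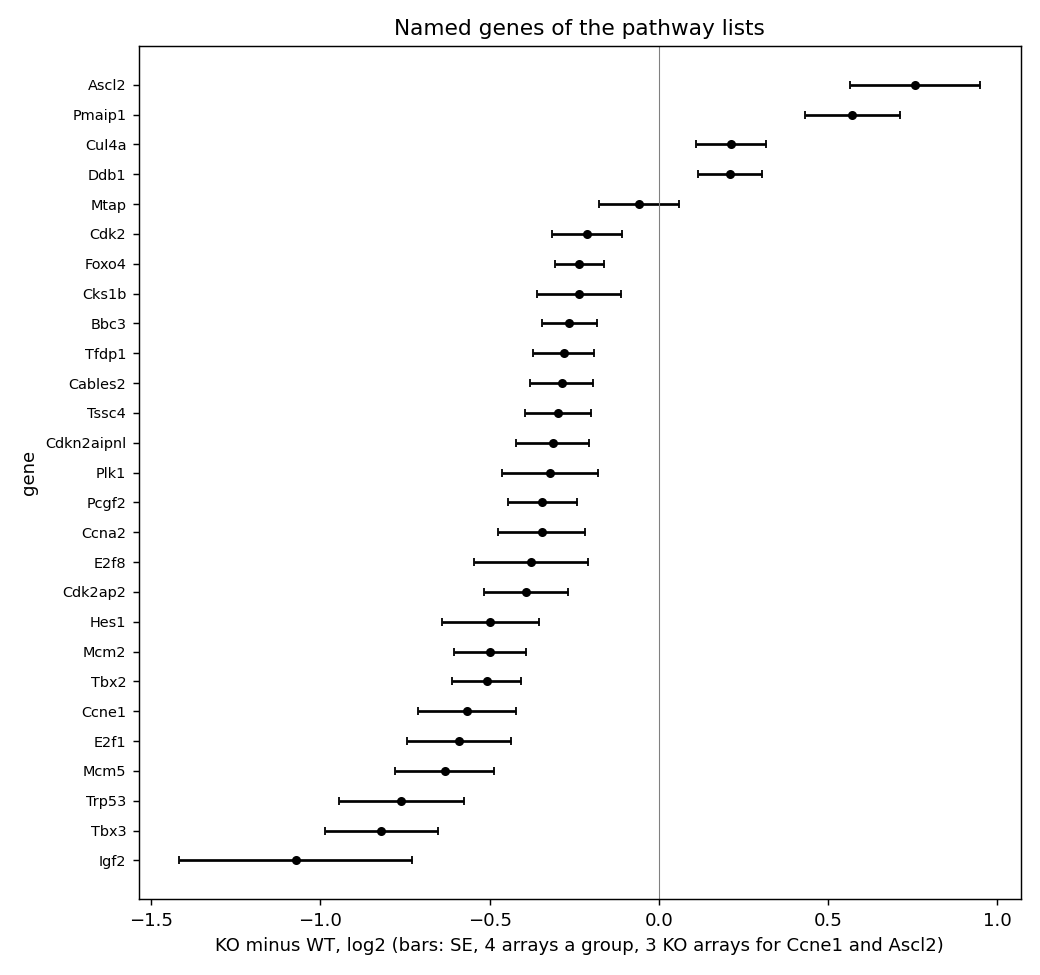
KO minus WT difference (log2, with SE) of the genes named from the pathway lists, up to 3 per list by smallest p; no limma adjusted p is under 0.05. Igf2 at -1.07, Tbx3 at -0.82 and Trp53 at -0.76 are the lowest, and Ascl2 at 0.76 and Pmaip1 at 0.57 the highest.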

How the data were processed

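The samples were 4 KO and 4 WT preparations, grouped by the labels, which call them biological replicates without naming animals or litters. The p-values therefore measure the spread between these samples. The authors' scanner files hold Cy5 and Cy3 intensity medians and median local backgrounds per spot, which the submitters' processing notes trace to Agilent Feature Extraction 10.7.3.1. They hold no mean signals, so the medians were used. The files also hold a log10 ratio, background-subtracted and dye-normalised by the authors' software per the file headers, and the p-value of that ratio, a unit of the deposited files that was not used here. The deposited series value table holds that log10 ratio and was an alternative.

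In limma 3.58.1 (R 4.3.3; jsonlite 2.0.0, version 1.17.8 of data.table), background was corrected by normexp with an offset of 50, then log2 ratios by a loess curve per array to which control spots gave no weight. Spots marked as non-uniform or as population outliers were dropped, and the spots of a probe were averaged. Tested probes also needed unflagged values on 3 arrays of each group. KO and WT were compared per probe with lmFit and eBayes, 2-sided, adjusted over all 31665 tested probes at a threshold of 0.05. Probes were named through RefSeq accessions: 21717 of 37850 systematic names matched. The array's own annotation is for build mm9, and every coordinate printed comes from RefSeq's GRCm38.p6.

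In data simulated for this comparison over 31665 probes, limma called 75 of 100 probes with a true log2 change of 1 and 99 of 100 with one of 2, and 10 unchanged probes. On the real arrays, which were uneven, 2 probes were called with all 8 arrays and 6692 without KO 2. The simulated rates are therefore no measure of power on these arrays. Genes named are all members, up to 3 of each list by smallest p at the probe with the highest mean intensity, and for each member the 3 probes most alike over the arrays. Those of Cdkn1b are not reported here. The members and the lists were chosen with earlier results of these data known. Array number, and the dim Cy3 channel, limit the precision. Figures were drawn with matplotlib 3.10.9, and sequence windows were read with pandas 2.3.3.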

Additional observations from a re-analysis of the deposited data

Results flagged for a closer look

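Among 16 groups of 4 array values from the CDK inhibitor probes, 1 value stood far from the others of its group. Cdkn1c (A_51_P339540) had a log2 ratio of 0.3819 on the array of WT 3, where the other 3 WT arrays had 0.78 to 0.86, and the gap made up 0.84 of the group's range. Chance flags about 1 in 20 groups in this way. The array of WT 3 set 1 RNA against itself in both dyes. Without WT 3 the Cdkn1c difference of KO minus WT was -0.64 (limma adjusted p = 0.205).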

How the results depend on the processing

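Over all probes the count at an adjusted p under 0.05 was 2. It was 1 with a normexp offset of 0, without background subtraction and with the mean over a gene's probes. It was 5 with the scanner's log ratio and with the series value table, 0 with median centring and with Cy5 alone, 6 with scaling between arrays, 4 without a filter, 17 with an intensity trend and 5949 with array weights. Leaving out 1 array gave 1 to 6692 probes, with 6692 without KO 2, 8 without KO 3 and 4 without WT 3, and leaving out KO 2 and KO 3 gave 7436. With replicate block the count was 0, with 0 CDK inhibitor probes. Same-numbered KO and WT arrays deviated with r of -0.21, 0.05, 0.11 and -0.01, which shows little shared deviation by number. The labels do not name litters, so whether same-numbered samples were paired cannot be settled this way. Of alternatives chosen after seeing the data, the scanner's log ratio without KO 3 gave 9 probes, Cy5 alone without KO 3 gave 40 and Cy5 alone with offset 0 gave 0.

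Of the CDK inhibitor probes, leaving out 1 array gave 0 to 4 called, with 4 of 9 without KO 2, where 21.1% of all tested probes were called. The count was 4 of 9 with array weights (18.8% of all), 5 without KO 2 and KO 3 (23.5%), and 1 with Cy5 alone without KO 3 (0.126%). It was 0 in the other alternatives. These counts hold the Cdkn2a probe, whose test the filter favours: without it they were 3 without KO 2, 3 with array weights and 4 without KO 2 and KO 3. The sign held for 8 of the 9 probes in all alternatives run. Cdkn2d turned to 0.004595 with the scanner's log ratio, 0.003737 with the series value table, 0.01236 with array weights, 0.05202 without KO 2 and KO 3, and 0.02209 with the scanner's log ratio without KO 3. Ddb1 (-0.531) and Cul4a (-0.1653) turned with median centring. Mtap ran between -0.1291 and 0.02526 with 1 array left out, positive without KO 3, and was 0.00176 without KO 2 and KO 3. The cause was not tested. Cy3 signals near background limit the ratios of Cdkn2a and of the dim Cdkn2b and Cdkn1a probes.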
